A study of Vitis vinifera with 6 samples.

Results

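Stilbene synthase genes of grapevine (*Vitis vinifera*) were described in young leaves of cv Shiraz plants that overexpress the NAC transcription factor gene *VviNAC33* and in control leaves. The genes were chosen by their identifiers, without regard to their values, as 2 runs of neighbouring genes. The chromosome 16 run extends from VIT_16s0100g00750 to VIT_16s0100g01200 and held 39 genes on the array, and the chromosome 10 run extends from VIT_10s0042g00840 to VIT_10s0042g00930 and held 10. These 49 genes, with 1 probe each, stood among 34369 probes. The annotation of the study names 24 of the 49 as stilbene synthase (*VvSTS*) genes and gives VIT_10s0042g00900 as having no match. The other members lie between the named ones and are given here by identifier only. The name *VvSTS1* is given to both VIT_10s0042g00850 and VIT_10s0042g00860.

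Messenger RNA was measured on 6 single-colour arrays, 3 from OXNAC33 leaves and 3 from control leaves. OXNAC33 plants carry *VviNAC33* under the *CaMV 35S* promoter, which drives expression in most tissues, and by the methods of the study the replicates were independent transgenic lines. Controls were vector controls by the same methods. The deposited design places the collection of leaves at the onset of the leaf phenotype of the OXNAC33 plants. The paper instead speaks of differences in expression that precede this phenotype. The labels do not state which line each OXNAC33 array carried, nor which plants gave each control array, so that p-values measure only the spread between these samples. Leaves were pooled, and a change in the share of a cell type cannot be told apart from a change within cells.

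Stilbene synthases are plant polyketide synthases that build resveratrol from a coumaroyl-CoA starter and malonyl-CoA units. Chalcone synthase uses the same substrates for the first step of flavonoid synthesis, so the enzymes stand at a branch point of the phenylpropanoid pathway. Grapevine holds an unusually large stilbene synthase family, most of it in tandem arrays, and its stilbenes are best known as phytoalexins that accumulate after infection, wounding or ultraviolet light. Because tandem copies are closely alike in sequence, a probe designed for one member may also bind transcripts of another. The level of any single member is therefore uncertain, and the members are not independent measurements. Probe and gene sequences were not used here.

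Before the members are described, the array labelled OXNAC33 replicate 2 has to be set apart. *VviNAC33* itself (VIT_19s0027g00230) read -0.54, -3.89 and -1.0 on OXNAC33 replicates 1, 2 and 3, against -5.22, -4.14 and -4.01 in controls (log2 intensity minus each array's 75th percentile, the scale of all levels below). The overexpressed gene was thus far above the controls on replicates 1 and 3, but on replicate 2 only just above the highest control. Its change was 2.65 (SE 0.88, limma, adjusted p = 0.116) with all arrays and 3.69 (adjusted p = 0.0198) without replicate 2. Where the probe lies relative to the transgene was not known. The paper chose its lines for the highest *VviNAC33* expression, measured by quantitative PCR, and those measurements were not compared with the arrays here. The arrays were scanned in 2 sessions. Session 1 held OXNAC33 replicates 1 and 2 and control replicate 1, and session 2 held OXNAC33 replicate 3 and control replicates 2 and 3. All 6 leaf photosynthesis markers (*LHCB3*, represented by 2 genes, *PSAO*, *CAB-1*, *PsbP* and *LHCA1*) were well above background on every array, with changes from -1.79 to 0.45, of which none was called (adjusted p from 0.144 to 0.963). These markers differed from the control mean by -2.45 to 0.66 on OXNAC33 replicate 1, by -0.30 to 0.46 on replicate 2 and by -2.62 to 0.67 on replicate 3. The ranges leave out the *LHCB3* gene VIT_00s0181g00200, which had no value on control replicate 1.

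Both runs were strongly represented on a single OXNAC33 array. On the array labelled OXNAC33 replicate 2, 41 of the 49 members (33 of 39 on chromosome 16 and 8 of 10 on chromosome 10) read more than 4-fold above the highest of the other 5 arrays. Among the members that could be tested it was 20 of 21, whereas 0.422% of all probes tested met this description (98 of 23228, those with a value on every array). This array gave the highest value for 44 of the 49 members and for 20 of the 21 tested ones, against 11.8% of probes. The 4-fold limit was chosen after the values were seen. Among all 33437 probes with a value on every array, 0.514% met the 4-fold description and 13% had their highest value on this array.

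**Figure D1:**
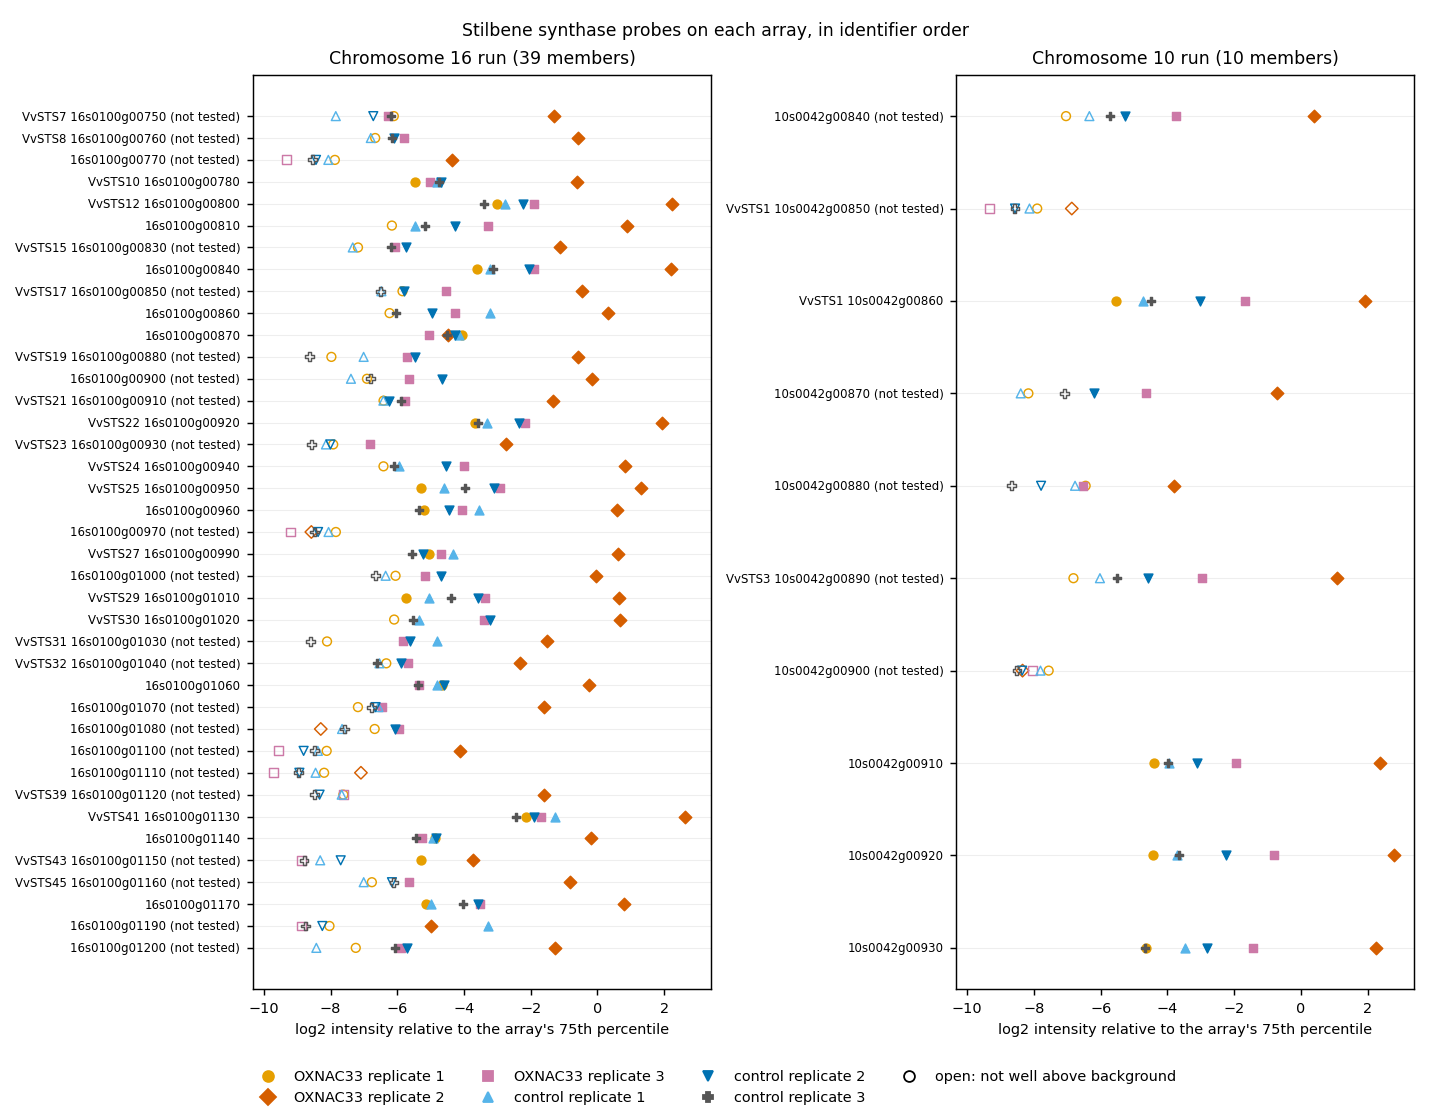
Level of each member on the 6 arrays (x axis, log2 intensity minus the array's 75th percentile), with members in identifier order down the page and the runs side by side. OXNAC33 replicate 2 (diamonds) is the highest array for 44 of the 49 members, and open symbols mark spots not well above background.

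The number of members that could be seen at all also varied by array. A spot was counted as detected when the scanner software flagged it as well above background. Of the 49 members, 18, 44 and 40 were detected on OXNAC33 replicates 1, 2 and 3, against 23, 35 and 29 on control replicates 1, 2 and 3. On all 6 arrays 17 members were detected, on all controls 21, and on no array 4. The 4 dark members were VIT_10s0042g00850, VIT_10s0042g00900, VIT_16s0100g00970 and VIT_16s0100g01110, so of the pair that share the name *VvSTS1* only VIT_10s0042g00860 gave a signal. Of all probes, 69.4% to 74.9% were detected on an array.

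The comparison of OXNAC33 with control leaves was made for the 21 members detected on every array of at least 1 group, 17 of them on chromosome 16 and 4 on chromosome 10. Detection in both groups let 17 members through and detection in controls alone let 4 through, while 0 entered through OXNAC33 leaves alone. None passed the threshold. By limma, 0 of 21 members were called higher and 0 lower at an adjusted p under 0.05, against 1.69% of all 23907 probes tested called higher and 3.33% called lower. The adjusted p-values of the members ran from 0.378 to 0.666. At an unadjusted p under 0.05 the count was again 0 of 21, against 27.3% of probes. The methods' t-test gave 0 members unadjusted, against 5805 of all 23907 probes. After adjustment it gave 0 members, against 2 of all probes, so that the adjusted count does not tell the members from other probes.

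The groups overlapped for each tested member. All OXNAC33 arrays lay above every control for 0 of 21 tested members (14.8% of probes) and below every control for 0 of 21 (20.2% of probes). This overlap came with a wide spread. The SD over the OXNAC33 arrays had a median of 3.16 over the tested members, against 0.66 over the control arrays, while the medians over all probes tested were 0.38 in OXNAC33 leaves and 0.25 in controls. The median change of the tested members was 1.70, and 20 of 21 were higher, where the median over all probes was -0.01 and 49.2% were higher. Without OXNAC33 replicate 2, the median change of the same members was 0.01, and 11 of 21 were higher. The mean change of these genes therefore rests on 1 array, and the arrays are given separately below.

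**Figure D2:**
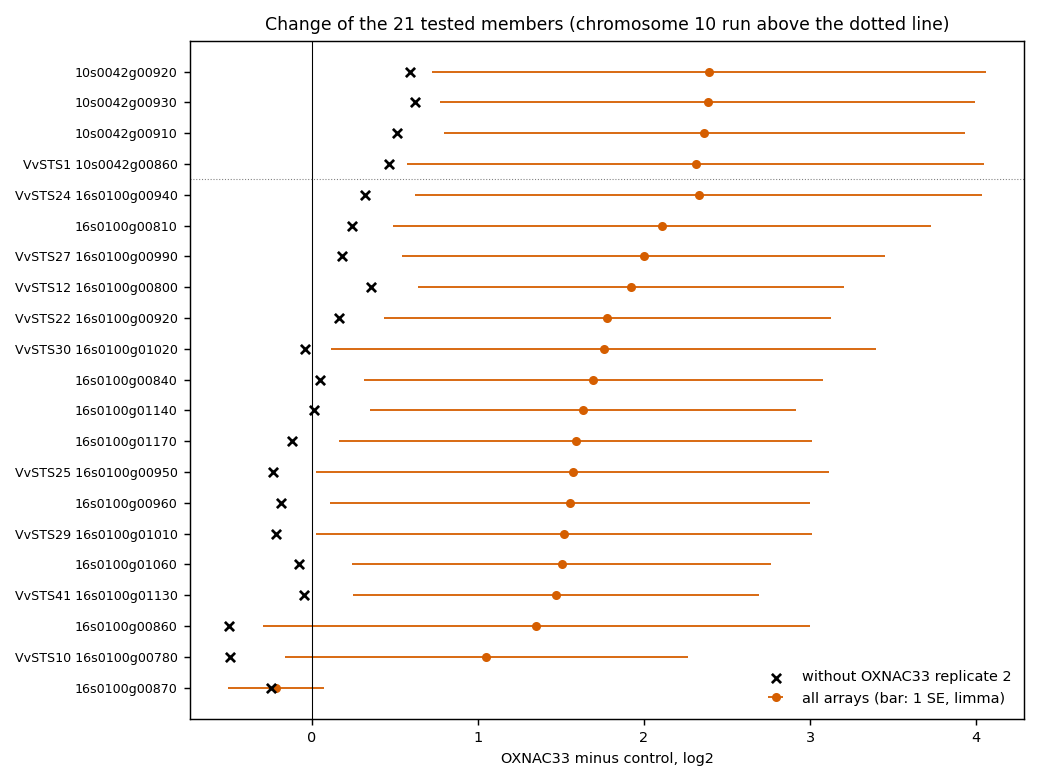
Change of each tested member (x axis, OXNAC33 minus control on the log2 scale) with all arrays (circles, bar of 1 SE from limma) and without OXNAC33 replicate 2 (crosses). With all arrays 20 of the 21 changes lie above 0, between 1.05 and 2.39, and without this array all 21 lie between -0.50 and 0.62.

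The chromosome 16 run was read first. Its 17 tested members had a median change of 1.59, of which 16 were higher. Relative to the control mean, the median of the run was -0.76 on OXNAC33 replicate 1, 5.01 on replicate 2 and 0.69 on replicate 3. On replicate 2 the fold over the control mean was 0.896 for VIT_16s0100g00870 and 17.6 to 81.6 for the other 16, with a median of 32.3 over all 17. Without that array the median change of the run was -0.05, and 7 of 17 members were higher. With all arrays and normexp background correction, the median change was 0.81.

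*VvSTS24* (VIT_16s0100g00940) had the greatest change among the 17 tested members of this run. It read -6.41, 0.82 and -4.01 on OXNAC33 replicates 1, 2 and 3, against -5.96, -4.53 and -6.10 on control replicates 1, 2 and 3. The first of these spots was not well above background. Replicate 2 stood 81.6-fold over the control mean, replicate 3 stood 2.88-fold over it, and replicate 1 lay below every control. The change was 2.33 (SE 1.71, limma, adjusted p = 0.424), and it was 0.32 without replicate 2.

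VIT_16s0100g00810, which the study does not name, also had OXNAC33 replicate 2 highest, followed by OXNAC33 replicate 3 and control replicate 2. Its levels were -6.16, 0.87 and -3.28 in OXNAC33 leaves, against -5.46, -4.28 and -5.16 in controls. The change was 2.11 (SE 1.62, adjusted p = 0.446), with OXNAC33 replicate 2 at 57.3-fold and replicate 3 at 3.21-fold over the control mean. Again replicate 1 was the lowest of the 6 arrays and was not well above background.

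*VvSTS27* (VIT_16s0100g00990) was detected on all arrays, at -5.04, 0.60 and -4.68 in OXNAC33 leaves, against -4.32, -5.24 and -5.55 in controls. Here control replicate 1, not control replicate 2, was the highest control and exceeded OXNAC33 replicate 3. The change was 2.0 (SE 1.46, adjusted p = 0.422), and OXNAC33 replicate 2 was 49.8-fold over the control mean.

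*VvSTS12* (VIT_16s0100g00800) and *VvSTS22* (VIT_16s0100g00920) were detected on all arrays. *VvSTS12* read -3.02, 2.25 and -1.89 in OXNAC33 leaves, against -2.79, -2.23 and -3.41 in controls, a change of 1.92 (SE 1.28, adjusted p = 0.382). *VvSTS22* read -3.68, 1.92 and -2.17 in OXNAC33 leaves, against -3.33, -2.36 and -3.58 in controls, a change of 1.78 (SE 1.35, adjusted p = 0.439). In both genes OXNAC33 replicate 2 stood far above the other arrays (33.3-fold and 32.3-fold over the control mean), replicate 3 was 1.89-fold over the control mean, and replicate 1 lay among or below the controls.

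VIT_16s0100g00870 was the exception in this run and the only tested member with a negative change. It read -4.07, -4.47 and -5.04 in OXNAC33 leaves, against -4.15, -4.27 and -4.51 in controls. All 6 spots were well above background, and OXNAC33 replicate 2 lay inside the range of the controls. Its change was -0.22 (SE 0.29, adjusted p = 0.666), and its neighbour in the run, VIT_16s0100g00860, stood 33.4-fold over the control mean on the same array.

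The other 11 tested members of this run had changes from 1.05 to 1.76, with adjusted p-values from 0.457 to 0.638. *VvSTS30* (VIT_16s0100g01020) was 41.0-fold, *VvSTS25* (VIT_16s0100g00950) 36.1-fold, *VvSTS29* (VIT_16s0100g01010) 31.7-fold and *VvSTS41* (VIT_16s0100g01130) 22.7-fold over the control mean on OXNAC33 replicate 2. *VvSTS10* (VIT_16s0100g00780) was the least raised of the 16, with -5.46, -0.61 and -5.01 in OXNAC33 leaves, against -4.82, -4.68 and -4.74 in controls. Its controls were close together (SD 0.07, n = 3), and OXNAC33 replicates 1 and 3 both lay below all of them.

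The medians of the chromosome 10 run put the OXNAC33 arrays in the same order, with a larger difference on OXNAC33 replicate 3. Its 4 tested members had a median change of 2.37 and were all higher. Relative to the control mean, their median was -1.09 on OXNAC33 replicate 1, 6.0 on replicate 2 and 2.31 on replicate 3. The folds on replicate 2 ran from 59.8 to 67.3, those on replicate 3 from 3.34 to 5.30, and those on replicate 1 from 0.359 to 0.607. Without replicate 2 the median change of these 4 members was 0.55, and 4 of 4 were higher.

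VIT_10s0042g00920 had the greatest change of any tested member. It read -4.44, 2.78 and -0.82 in OXNAC33 leaves, against -3.73, -2.26 and -3.67 in controls. OXNAC33 replicates 2 and 3 lay above every control and replicate 1 below every control. The change was 2.39 (SE 1.67, limma, adjusted p = 0.402), and it was 0.59 without replicate 2.

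VIT_10s0042g00930 read -4.63, 2.24 and -1.44 in OXNAC33 leaves, against -3.48, -2.82 and -4.68 in controls. OXNAC33 replicate 1 was here level with the lowest control. The change was 2.38 (SE 1.61, adjusted p = 0.386). The 2 further tested members of the run, chosen for description after their values were seen, were VIT_10s0042g00910 and *VvSTS1* (VIT_10s0042g00860). VIT_10s0042g00910 read -4.41, 2.38 and -1.95 in OXNAC33 leaves, against -3.97, -3.11 and -4.00 in controls, with a change of 2.36 (SE 1.57, adjusted p = 0.378). *VvSTS1* read -5.56, 1.92 and -1.67 in OXNAC33 leaves, against -4.73, -3.02 and -4.49 in controls, with a change of 2.31 (SE 1.74, adjusted p = 0.436). Both had OXNAC33 replicate 2 highest, replicate 3 next and replicate 1 below every control.

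Away from OXNAC33 replicate 2, OXNAC33 replicates 1 and 3 were compared with the controls one at a time. OXNAC33 replicate 3 lay above every control for 12 of 21 tested members, where 33.7% of probes did so, and for 25 of all 49 (17 of 39 on chromosome 16 and 8 of 10 on chromosome 10), against 27.3% of all probes with a value on every array. OXNAC33 replicate 1 lay below every control for 13 of 21 tested members, where 36.2% of probes did so, and for 16 of all 49, against 27.4% of all probes with a value on every array. The 13 include the 4 members that were tested through controls alone, whose spots on replicate 1 were not well above background, so that the filter supplied part of this count. Over the members detected on all controls and on the array concerned, folds over the control mean ran from 0.602 to 5.30 on replicate 3 (21 members, median 1.89) and from 0.359 to 1.20 on replicate 1 (17 members, median 0.607). The tested members of chromosome 10 and those of chromosome 16 did not overlap on replicate 3, where chromosome 16 reached at most 3.21-fold. This was not tested, since neighbouring members may share transcripts at a probe.

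Control leaves differed among themselves as well. Control replicate 2 was the highest control for 16 of 21 tested members, against 29.6% of probes. The median of the tested members relative to the control mean was -0.24, 0.62 and -0.45 on control replicates 1, 2 and 3. Among chromosome 10 members these medians were -0.39, 0.90 and -0.43, so that the higher level of control replicate 2 was present in both runs. Control replicates 2 and 3 and OXNAC33 replicate 3 were scanned in session 2, and control replicate 1 and OXNAC33 replicates 1 and 2 in session 1. The part of the session in these differences was not tested. Inside session 1 the median change was 2.41 for chromosome 16 and 2.91 for chromosome 10, and inside session 2 it was 0.69 and 2.11.

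The members not detected in controls give lower bounds only. On no control array 12 members were detected, and 8 of these were detected on OXNAC33 replicate 2. Taking as the control level, on each array, the higher of the spot itself and the lowest signal well above background, this array was at least 4.30-fold to 39.3-fold over the controls for these 8. The highest bounds were 39.3-fold for *VvSTS45* (VIT_16s0100g01160), 29.2-fold for *VvSTS39* (VIT_16s0100g01120) and 28.8-fold for VIT_16s0100g01070. For VIT_16s0100g00770, VIT_16s0100g01100 and *VvSTS39*, OXNAC33 replicate 2 was the only array of the 6 with a detected spot. Among the 16 members detected on some but not all controls, 15 were detected on OXNAC33 replicate 2. They include *VvSTS3* (VIT_10s0042g00890), which read -6.82, 1.07 and -2.96 in OXNAC33 leaves, against -6.02, -4.58 and -5.51 in controls. Its spots on OXNAC33 replicate 1 and control replicate 1 were not well above background, and replicate 2 was at least 87.3-fold over the controls.

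A few members departed from the common order, and they are given because they show where a run is not uniform. *VvSTS43* (VIT_16s0100g01150) was the only member seen on OXNAC33 replicate 1 but on no control. It read -5.30, -3.74 and -8.87 in OXNAC33 leaves, against -8.31, -7.70 and -8.79 in controls, with detection on OXNAC33 replicates 1 and 2 only. VIT_16s0100g01190 was brightest in control replicate 1, and read -8.03, -4.99 and -8.87 in OXNAC33 leaves, against -3.27, -8.25 and -8.76 in controls. It was detected only on control replicate 1 and OXNAC33 replicate 2. VIT_16s0100g01080 was not detected on OXNAC33 replicate 2 and read -6.68, -8.29 and -5.96 in OXNAC33 leaves, against -7.66, -6.08 and -7.57 in controls. Only its spots on OXNAC33 replicate 3 and control replicate 2 were detected. Of the 49 members, 3 had all OXNAC33 arrays above every control, against 11.5% of all probes with a value on every array. They were VIT_10s0042g00880, *VvSTS23* (VIT_16s0100g00930) and *VvSTS39*. Each of these had only undetected spots in controls and was not tested. Their spots on OXNAC33 replicate 1 were undetected as well, and so was that of *VvSTS39* on OXNAC33 replicate 3. The order thus rests in part on spots at background in both groups.

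The difference on OXNAC33 replicate 2 was set against the genes next to each run. The 10 nearest identifiers on each side of both runs were read as neighbours. Of the neighbours detected on all arrays and with a value on that array, 15 beside the chromosome 16 run differed from the control mean by -0.76 to 0.78 on it, and 8 beside the chromosome 10 run by -0.79 to 0.76. With neighbours not detected on every array included, the ranges were -2.37 to 3.03 and -0.90 to 2.78. The medians of the tested members, of which 13 of 17 and 4 of 4 were detected on all arrays, were 5.01 and 6.0. VIT_16s0100g00740, directly before the chromosome 16 run, read 2.37, 1.16 and 2.10 in OXNAC33 leaves, against 1.43, 1.60 and 1.37 in controls, and VIT_16s0100g01210, directly after it, read 3.98, 2.81 and 3.42 in OXNAC33 leaves, against 3.14, 3.16 and 3.05 in controls. In both genes OXNAC33 replicate 2 was the lowest array. Among the 39 neighbours with a value on every array, 1 met the 4-fold description on this array (VIT_10s0042g00700, not detected on the other 5). The only neighbour called was VIT_16s0100g00710, which was detected on all controls and on no OXNAC33 array and was called lower (limma, adjusted p = 0.0361).

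**Figure D3:**
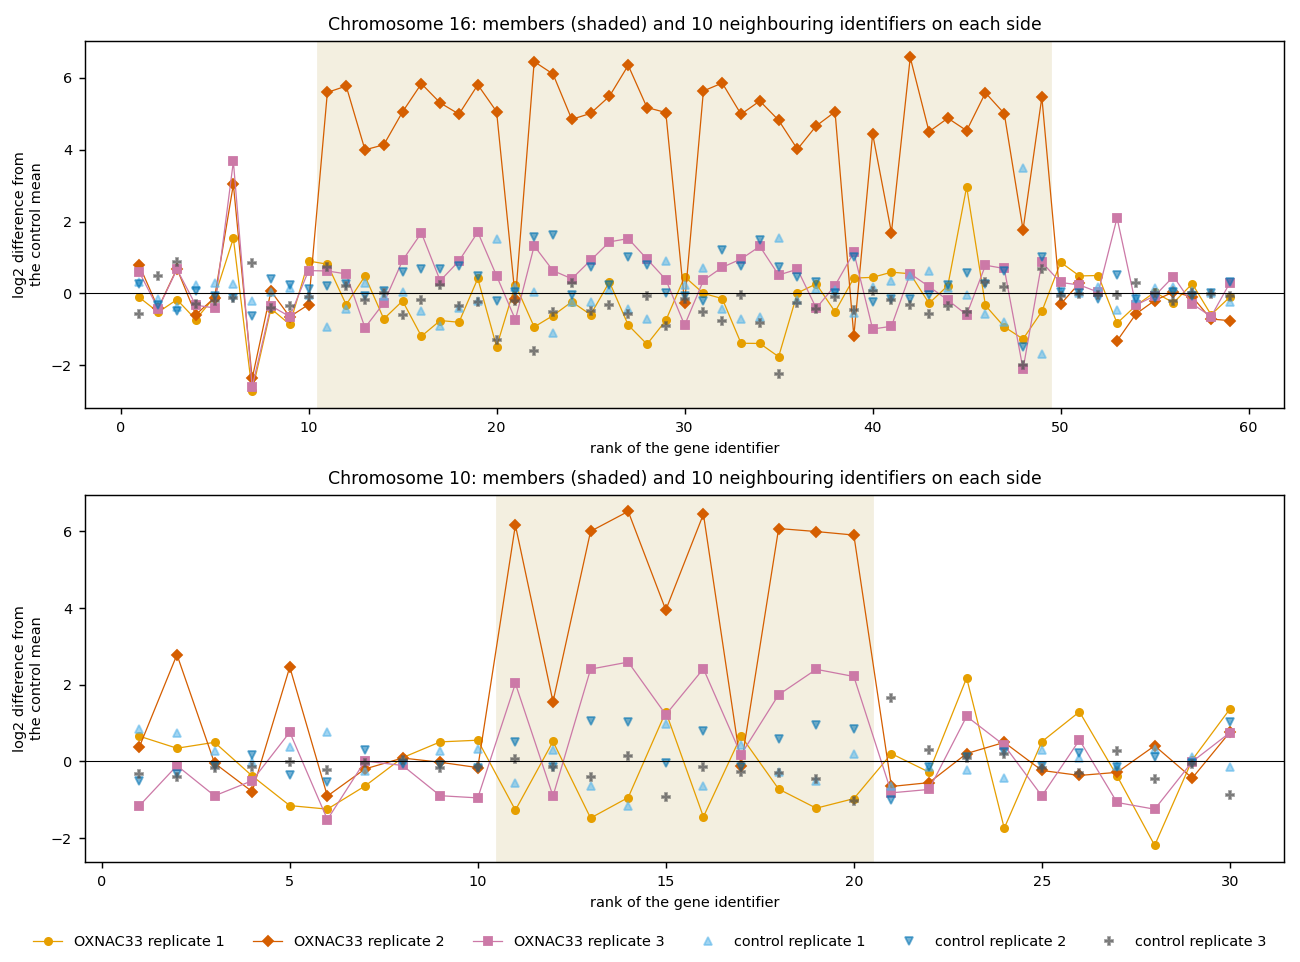
Difference of each array from the control mean (y axis, log2) for the members (shaded) and their 10 nearest neighbours on each side, in the order of their identifiers (x axis, rank). On OXNAC33 replicate 2 the difference is high inside both shaded stretches, with tested members at a median of 5.01 and 6.0, and the neighbours detected on every array and with a value on this one lie between -0.79 and 0.78. Neighbours not detected on every array reach from -2.37 to 3.03.

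The wider pathway was read from 19 genes that the study annotates, of which 13 could be tested. Of the 13, 2 were called higher and 0 lower, against 1.69% and 3.33% of all probes tested. Both called genes stand in the list of genes that the study called on these samples. This count was therefore shaped by how the genes were chosen. The best separated was *MYB15* (VIT_05s0049g01020), an R2R3-MYB factor known in grapevine as an activator of stilbene synthase promoters. It read -2.29, -1.83 and -1.47 in OXNAC33 leaves, against -4.62, -4.94 and -4.56 in controls. OXNAC33 replicates 1, 2 and 3 were higher than the control mean by 2.42, 2.88 and 3.24, so that no overlap with controls occurred and replicate 2 was not the highest. The change was 2.85 (SE 0.27, limma, adjusted p = 0.0361), or 7.19-fold. The call was lost with the session as a block (adjusted p = 0.0546) and in the fits without a single array except that without OXNAC33 replicate 2 (2.83, adjusted p = 0.0198). Of all probes tested, 0 were called with the session block or in each fit without a control array. Without OXNAC33 replicate 1 the count was 9, and without OXNAC33 replicate 3 it was 1. These losses were therefore not particular to *MYB15*. *MYB15* stands in the list of genes that the study called on these samples, which is not independent evidence of its direction, and so do *4CL2*, *CHS2*, *CHS3* and the genes VIT_06s0061g00450 (*4CL*) and VIT_06s0004g02620 (*PAL*) described below. *MYB15* was highest on OXNAC33 replicate 3, and *VviNAC33* was lowest among OXNAC33 arrays on replicate 2. Whether either gene bears on the level of the members was not tested.

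Phenylalanine ammonia-lyase (PAL) opens the phenylpropanoid pathway. The *PAL* gene VIT_16s0039g01170 read -2.53, 0.90 and -3.43 in OXNAC33 leaves, against -2.35, -4.12 and -4.98 in controls. Like the members, it was highest on OXNAC33 replicate 2, by 4.71 over the control mean on the log2 scale, and its change of 2.13 (SE 1.20, limma, adjusted p = 0.305) did not pass the threshold. The other *PAL* gene, VIT_06s0004g02620, read -0.90, -0.96 and -3.50 in OXNAC33 leaves, against 0.42, 0.27 and 0.31 in controls. That gene was lower on each OXNAC33 array, with a change of -2.12 (SE 0.69, adjusted p = 0.110).

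The 4-coumarate-CoA ligases supply the coumaroyl-CoA starter. The *4CL* gene VIT_06s0061g00450 read 0.76, 0.41 and 0.58 in OXNAC33 leaves, against -0.46, -0.53 and -0.53 in controls, and was called higher (change 1.09, SE 0.19, adjusted p = 0.0390). OXNAC33 and control arrays did not overlap. Its call was lost with the session as a block (adjusted p = 0.0569) and without any single array other than OXNAC33 replicate 2. In those fits only 0 to 9 of all probes tested were called, as given for *MYB15*. *4CL2* (VIT_17s0000g01790, 0.76, adjusted p = 0.0633) and *4CL3* (VIT_16s0039g02040, -0.64, adjusted p = 0.463) were not called, and *4CL1* was not tested. On OXNAC33 replicate 2 the 3 tested ligases lay 0.31 to 0.92 above the control mean.

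Chalcone synthase, the competing enzyme, was represented by *CHS2* (VIT_14s0068g00920) and *CHS3* (VIT_05s0136g00260). *CHS2* read 2.37, 2.28 and -0.88 in OXNAC33 leaves, against 3.64, 3.53 and 4.02 in controls (change -2.48, SE 0.86, adjusted p = 0.125). *CHS3* read 1.40, 2.27 and 0.34 in OXNAC33 leaves, against 2.72, 3.07 and 3.03 in controls (change -1.60, SE 0.47, adjusted p = 0.0907). Both lay below every control on all OXNAC33 arrays, replicate 2 included, without passing the threshold. Acetyl-CoA carboxylase, which makes malonyl-CoA, gave a change of -0.70 (SE 0.26, adjusted p = 0.152) for *CAC2* (VIT_11s0065g00360), while *ACC2* was not tested because outlier flags removed its spots.

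The study also annotates 8 O-methyltransferase genes as resembling enzymes that methylate orcinol or resveratrol. Of these, 4 were detected on no array. The 4 tested ones had changes from -0.21 to 0.28 (adjusted p from 0.840 to 0.996). They shared the array order of the members in part, with OXNAC33 replicate 2 at 1.89 to 2.28 above the control mean and replicate 1 below the control mean. For VIT_12s0028g02740 and VIT_12s0028g02810 the spot on replicate 1 was not well above background. The gene VIT_12s0028g01880 read -4.92, -0.63 and -2.77 in OXNAC33 leaves, against -1.78, -3.09 and -2.82 in controls.

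**Figure D4:**
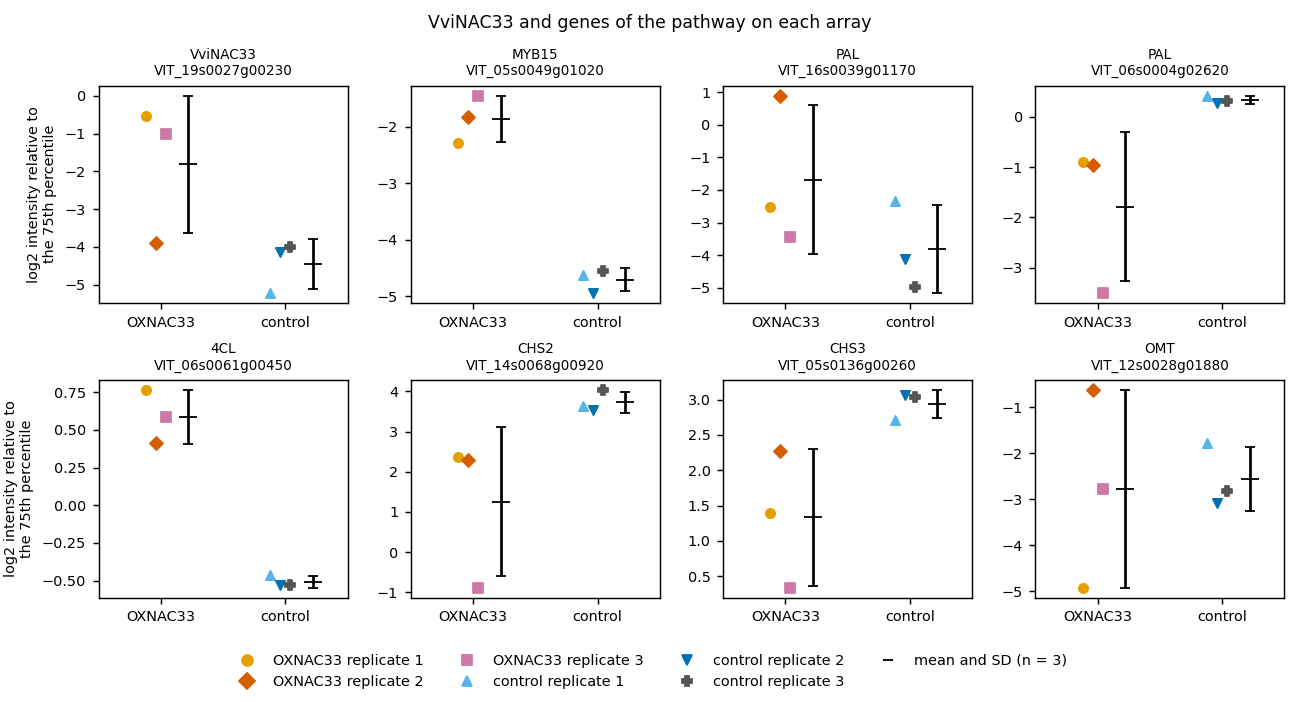
Levels of *VviNAC33* and of pathway genes (y axes, log2 intensity relative to the 75th percentile, scaled per panel) on the OXNAC33 and control arrays, with the mean and SD of each group (n = 3). *MYB15* and *4CL* are higher on all 3 OXNAC33 arrays, the *PAL* gene VIT_16s0039g01170 is highest on OXNAC33 replicate 2 at 0.90, and *CHS2* and *CHS3* lie below the controls.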

How the data were processed

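RNA from each sample, labelled with Cy3, was hybridized to a custom grapevine array and scanned by the authors, and spots were quantified in Agilent Feature Extraction 10.5.1.1. The deposited intensity values are on a linear scale and were background- and trend-corrected, but not normalized across arrays. The flags of 0 or 1 deposited with them (well above background, saturated, outlier) decided which spots counted as detected. A second deposited table, of scaled intensity values by the authors, held 26 of the 49 members and was used as an alternative.

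The log2 of each processed intensity was taken and the array's 75th percentile subtracted, leaving out flagged outlier spots, of which the members had 0, as they had 0 saturated spots. A probe was tested where every array of OXNAC33 or of control leaves had it well above background and each group kept 2 or more values. The moderated two-sided test of limma 3.58.1 (eBayes after lmFit, run in R 4.3.3) was used over 6 arrays with no covariate, with Benjamini-Hochberg adjustment over 23907 probes and a threshold of 0.05. The fit was tested on simulated data with equal spread in both groups and shifts shared by all OXNAC33 arrays. Most members were high on a single array, so the simulation does not bear on them. Descriptions that compare single arrays used the 23228 tested probes with a value on each array.

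Values on each array are printed for members past the threshold, for the 5 largest changes of each sign on chromosome 16 and the 2 largest of each sign on chromosome 10, and for other members where so stated or where they depart from the common order. Members and lists were chosen with earlier results of these data known. Identifiers follow the Genoscope annotation, and 0 of them stand in the RefSeq table of names. Neither coordinates nor sequences were used here. The number of arrays limits the precision.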

Additional observations from a re-analysis of the deposited data

How the results depend on the processing

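The alternatives were scaling by quantiles, by the array median or by a percentile taken over detected probes alone, the authors' values, a looser and a tighter detection filter, the session or the replicate number as a block, trend and robust estimation, array weights, the methods' t-test, and leaving out each array. Background correction with normexp could not be run on mean signals as planned and was run on median signals, chosen after seeing the data.

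The count of members called was 0 under all 13 settings that kept every array and 0 in each of the 6 fits without an array. Over all probes tested, 0 were also called with normexp, without a filter, with either block and in each fit without a control array. The adjusted t-test called 2 of all probes, the fit without OXNAC33 replicate 1 called 9 and that without OXNAC33 replicate 3 called 1. In those settings a count of 0 does not tell the members from other probes. The other adjusted settings with every array called 1136 to 1806 probes, and the fit without OXNAC33 replicate 2 called 2554. Without OXNAC33 replicate 1, 39 members were tested and 13 had an unadjusted limma p under 0.05 (smallest adjusted p 0.110). The added members entered through detection on OXNAC33 replicates 2 and 3, so the filter itself favoured members high in OXNAC33 leaves. The share of all probes at that unadjusted p was not computed, and no conclusion is drawn from the 13. The median change of the chromosome 16 run lay between 0.81 and 1.72 with every array and between -0.05 and 2.97 without single arrays, the lowest without OXNAC33 replicate 2 and the highest without OXNAC33 replicate 1. For chromosome 10 the ranges were 1.65 to 2.50 and 0.55 to 4.15, with the same arrays at the ends. The highest values, 2.97 and 4.15, were medians over 31 and 8 tested members, not over the 17 and 4 of the main fit. The members added there passed the filter through OXNAC33 replicates 2 and 3, so these medians cannot be compared with the others. The lowest values with every array came from normexp; the cause was not tested. Among members named by rule, VIT_16s0100g00870 alone changed sign. Without single arrays it ran from -0.45 to 0.040, the highest value being that without OXNAC33 replicate 3 (adjusted p = 0.933). Over all fits the adjusted p-values of these members ran from 0.110 to 0.933. With the replicate block 0 members were called (limma, smallest adjusted p 0.249), as were 0 of all 23907 probes. The medians of 1.59 and 2.37 could not change with this block, because every replicate number occurs in both groups. Same-numbered arrays share only a number (correlations of their deviations 0.26, -0.22 and 0.19). The calls of *MYB15* and *4CL* held in 7 of 12 fits with every array (adjusted p from 0.0266 to 0.176 and from 0.0271 to 0.101), and the change of *MYB15* was 1.13 with normexp. Both calls were lost with normexp, without a filter, with either block and with the adjusted t-test, settings that called 0 to 2 of all probes.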

Other observations

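Of the 98 tested probes more than 4-fold above all other arrays on OXNAC33 replicate 2, 20 were members (20.4%) and 78 were not. The others included 11 of the 133 probes tested on scaffold VIT_11s0052, 6 of 82 on VIT_05s0062 and 5 of 197 on VIT_14s0066. Small scaffolds also had them, with 3 of 3 on VIT_00s0615 and 2 of 3 on VIT_00s0371. Scaffold VIT_16s0039, named only because it carries the *PAL* gene given above, had 2 of 192. The identifiers on the first 3 of these scaffolds were not named here.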
